A study of Mus musculus with 4 samples.

Results

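Metallothionein genes, zinc transporter genes and the gene of the zinc-sensing transcription factor MTF-1 were followed in mouse bone marrow cells cultured to form osteoclasts, the multinucleated cells that resorb bone. The 7 genes are Mt1, Mt2, Mt3, Mtf1, Slc30a1, Slc39a8 and Slc39a14, and they were picked by symbol with earlier results of these arrays known, so their values are given as a description. All 7 were found among 18193 named genes, with 17 of the 45101 probe sets of the array. Total RNA was measured on 4 Affymetrix mouse arrays, 1 for each of 4 days, from the marrow of female C57Bl/6J mice aged 12 weeks. Day 1 is marrow on the day of extraction. Day 4 is marrow grown for 3 days with 10% serum and 10 nM vitamin D3 and with no added cytokine. Days 5 and 7 are cells given 2 cytokines as well. M-CSF, at 20 ng/ml, keeps macrophage precursors alive and dividing, and RANKL, at 40 ng/ml, turns them into osteoclasts. The labels give 0, 3, 4 and 6 days of differentiation for days 1, 4, 5 and 7. This is read as the whole time in culture, with the 3 days before the cytokines included. With 1 array per day there is no test and no replicate spread, and an effect of the cytokines cannot be told apart from one of time in culture. The labels do not say whether marrow of several mice was pooled.

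Metallothioneins are small proteins rich in cysteine that bind zinc and copper and buffer the free metal in the cell. Free zinc activates MTF-1, which binds metal response elements in the promoters of Mt1, Mt2 and Slc30a1. ZnT proteins, the SLC30 family, carry zinc out of the cytosol, and ZIP proteins, the SLC39 family, carry it in. MT-3 is best known from the brain, where it was described as a growth inhibitory factor.

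In the order of the RefSeq annotation (GRCm38.p6), Mt4, Mt3, Mt2 and Mt1 follow each other on mouse chromosome 8, with no other protein-coding gene between them. RefSeq promoter windows of 300 bases, from 250 bases before to 50 after a start, were found for 6 of the 7 genes. The 250 bases before the start are shown for the 3 metallothionein genes, whose signals were higher on each later day, and for Slc30a1, another known MTF-1 target. They read 5′ to 3′, and all 4 genes lie on the plus strand. Capitals mark the core of the metal response element, searched as TGCACNC and TGCGCNC on both strands.
Mt1, chr8:94178839-94179088: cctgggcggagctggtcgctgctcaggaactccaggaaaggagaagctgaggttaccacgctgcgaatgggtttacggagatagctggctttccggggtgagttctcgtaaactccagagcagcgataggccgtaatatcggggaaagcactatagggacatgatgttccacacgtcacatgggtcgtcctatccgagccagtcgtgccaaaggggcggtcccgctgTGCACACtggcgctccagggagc
Mt2, chr8:94172368-94172617: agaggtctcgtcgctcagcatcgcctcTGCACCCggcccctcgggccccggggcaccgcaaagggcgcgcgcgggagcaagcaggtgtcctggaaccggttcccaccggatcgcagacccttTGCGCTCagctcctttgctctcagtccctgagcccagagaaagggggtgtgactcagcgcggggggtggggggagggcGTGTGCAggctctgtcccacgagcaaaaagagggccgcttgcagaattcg
Mt3, chr8:94152357-94152606: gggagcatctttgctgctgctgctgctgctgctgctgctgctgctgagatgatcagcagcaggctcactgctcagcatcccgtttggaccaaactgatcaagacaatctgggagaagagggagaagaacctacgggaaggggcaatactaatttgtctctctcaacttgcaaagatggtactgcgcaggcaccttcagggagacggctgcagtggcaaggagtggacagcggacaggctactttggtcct
Slc30a1, chr1:191906531-191906780: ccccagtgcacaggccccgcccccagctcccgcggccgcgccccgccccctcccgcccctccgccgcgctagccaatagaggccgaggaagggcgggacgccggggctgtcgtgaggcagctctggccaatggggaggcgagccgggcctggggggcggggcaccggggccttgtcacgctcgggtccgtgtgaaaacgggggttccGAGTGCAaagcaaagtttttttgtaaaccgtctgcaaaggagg
Over the whole 300-base windows the Mt2 promoter held 4 such cores, that of Mt1 held 3, that of Slc30a1 held 2 and that of Mt3 held 1. The cores of Mt1 lay at -23 to -17 before the start and at 3 to 9 and 21 to 27 after it. The single core of Mt3 lay at 28 to 34 after the start and so outside the bases shown. The window of Mtf1 held none, and of the 2 windows of Slc39a8 1 held a single core. Among 32851 RefSeq windows of the same length, 25.7% held at least 1 core, 7.11% at least 2, 1.97% at least 3 and 0.517% at least 4. The Mt2, Slc30a1 and first Slc39a8 windows also held TGACNNNGC, the core of the antioxidant response element, as did 12.4% of all windows. TTCNNNGAA, the pattern bound by STAT factors, was in none of the members' windows and in 8.30% of all. The E-box CACGTG was in the second Slc39a8 window and in 7.15% of all. The last 3 patterns were searched on both strands too. A match is only a match of letters. Positions count from the RefSeq start of each window, and bases outside the windows were not searched. A count can therefore miss sites that lie further away or near another start of the gene.

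Values are signals in array units on a linear scale, as deposited. The floor was 32.4, the median over all arrays, and lower signals were set to it before differences were taken, and a gene at the floor on 1 of 2 days has a fold that is a bound. Calls of higher or lower need 2-fold or more, which is a threshold of size and not of significance. Each gene is represented by its probe set with the highest mean signal. Of the members' 17 probe sets, 14 were above the floor on at least 1 day and 10 on all 4 days. Across the 5 comparisons of days, 16 spiked control probe sets had an SD between 0.07 and 0.18 on the log2 scale. Probe sets of the same gene had a pooled SD between 0.26 and 0.53. The first describes technical precision, and the second also holds differences in what the probe sets of a gene detect. Neither describes variation between cultures.

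All 3 metallothionein genes had their lowest signal on day 1 and a higher one on each later day. Mt1, a widely expressed metallothionein gene, had signals of 2763, 4846, 6371 and 7963 on days 1, 4, 5 and 7. The largest of its 3 steps was from day 1 to day 4, with a log2 difference of 0.81. Mt1 stayed under 2-fold at each step and was 2.88-fold higher on day 7 than on day 1. This probe set is of a kind that can match several transcripts. The second Mt1 probe set lay at or near the floor on every day, between 25.9 and 33.2, so the course of Mt1 rests on 1 probe set. In the mean over both, day 7 over day 1 had a log2 difference of 0.76, under 2-fold. The second probe set was at the floor on both of these days, so this mean is smaller by construction.

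Mt2, which encodes another widely expressed metallothionein, had signals of 240, 698, 1748 and 2676. It was 2.92-fold higher on day 4 than on day 1 and 2.50-fold higher on day 5 than on day 4. From day 5 to day 7 the fold was 1.53. Both of its larger steps lie above the 95th percentile of all genes, which was a log2 difference of 1.53 for day 4 over day 1 and 0.74 for day 5 over day 4. Day 7 was 11.2-fold above day 1, and of 10182 genes above the floor on both days Mt2 had the 39th highest difference.

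Mt3, the gene of the metallothionein known from the brain, went from below the floor to a clear signal. Its signals were 15.2, 223, 994 and 2041 on the 4 days. Only the day 1 signal lay under the floor, and each later day was at least 2-fold above the one before it. Day 4 was at least 6.87-fold above day 1, day 5 was 4.46-fold above day 4, and day 7 was 2.05-fold above day 5. The step to day 5 was the 12th highest of 10935 genes above the floor on both days. Between day 4, before the cytokines, and day 7 Mt3 was 9.17-fold higher, the 7th highest of 10601 genes. Against fresh marrow, day 7 was at least 62.9-fold higher. A single probe set measures Mt3. The fourth gene of the cluster, Mt4, which is known from stratified epithelia, stayed below the floor on all 4 days, between 1.15 and 10.8.

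**Figure D1:**
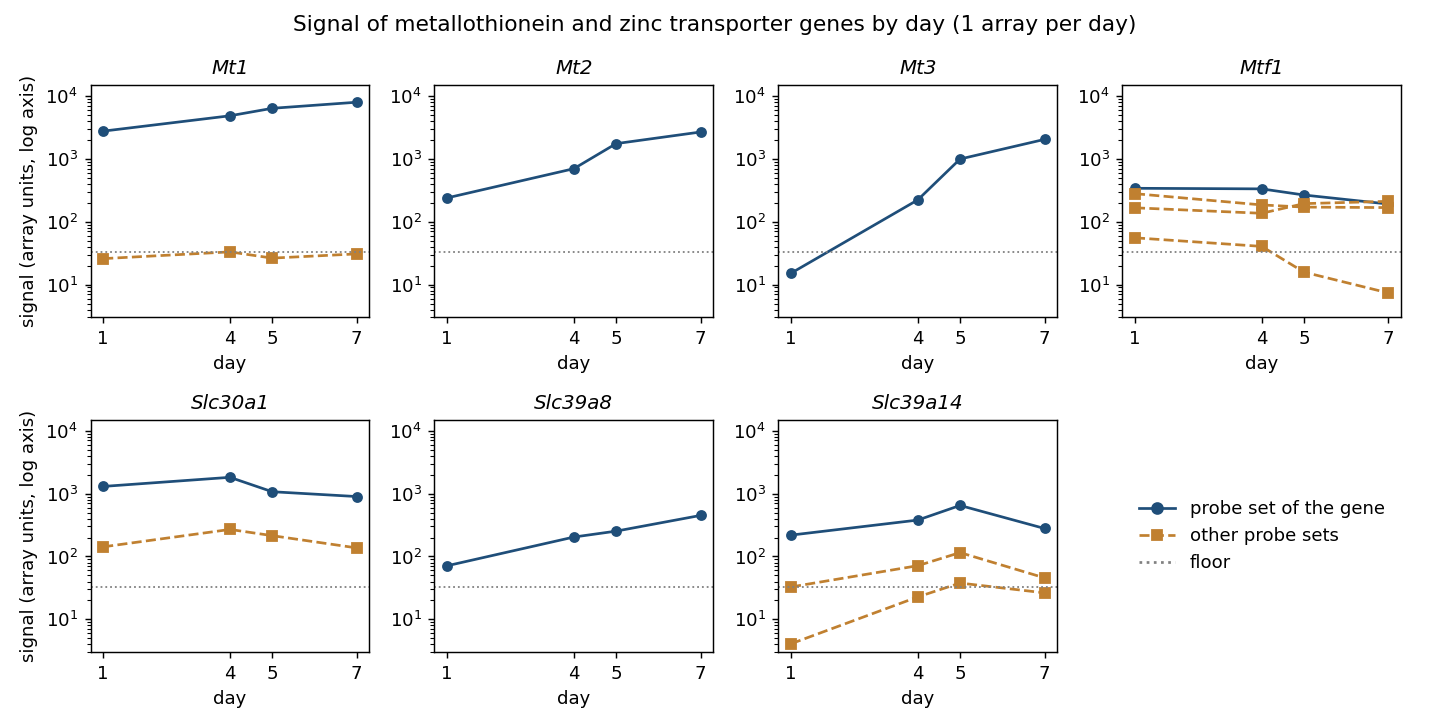
Signal of the 7 genes (log axis, array units) against the day, 1 array per day. Solid blue lines are the probe set that stands for the gene, dashed orange lines other probe sets with a signal past the floor on any day, and the dotted line is the floor of 32.4; Mt3 climbs from 15.2 to 2041 and Slc39a14 peaks on day 5 at 648.

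Mtf1, which encodes the transcription factor that senses zinc, did not have the course of the metallothionein genes. Its signals were 341, 333, 266 and 191, so it was lowest on day 7, with a log2 difference of -0.83 from day 1. A second probe set was lower on day 7 too, at 168 against 280, a log2 difference of -0.74. Another went the other way from day 4 on, with 136 on day 4 and 211 on day 7. The direction of Mtf1 after day 4 therefore depends on the probe set, and none of these 3 probe sets was 2-fold different in any of the 5 comparisons. The remaining ones were lower still: 1 was above the floor on days 1 and 4 only, at 55.5 and 40.5, and 1 on no day.

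Slc30a1 encodes ZnT1, the zinc exporter of the plasma membrane. Its signals were 1302, 1817, 1072 and 899, highest on day 4, before the cytokines were added. The second probe set had the same order of day 4 above day 5 and day 5 above day 7, with signals of 142, 269, 215 and 137. Day 7 was 2.02-fold lower than day 4, and the second probe set had a log2 difference of -0.98. With arrays scaled to the same median the difference was -0.85, and in the mean over both probe sets it was -0.996, each under 2-fold. Slc30a1 was thus lower on both days on which Mt1 and Mt2, targets of the same factor, were higher than on day 4.

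Slc39a8 encodes ZIP8, an importer of zinc and manganese. Its signals were 71.2, 204, 253 and 450, higher on each later day. It was 2.86-fold higher on day 4 than on day 1 and 2.21-fold higher on day 7 than on day 4. Day 7 was 6.32-fold above day 1, the 108th highest of 10182 genes. The second probe set was below the floor on all days, with signals from 7.59 to 12.6, so Slc39a8 rests on 1 probe set. The mean over both had log2 differences of 0.76 from day 1 to day 4 and 0.57 from day 4 to day 7, which are under 2-fold. These are smaller by construction, since the second probe set adds no difference.

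Slc39a14 encodes ZIP14, an importer of zinc, iron and manganese that is known to be induced by IL-6 in liver. It was the only one of the 7 genes with its highest signal on day 5, at 219, 380, 648 and 279 on the 4 days. Day 7 was 2.32-fold lower than day 5, and under 2-fold lower, at a log2 difference of -0.69, in the mean over its 4 probe sets. A second probe set had the same shape at 32.8, 71.4, 115 and 45.7, with a log2 difference of -1.34 for day 7 over day 5. Another passed the floor on day 5 alone, at 37.8, and the fourth stayed below it. The 2 importer genes thus differed at the last step, where Slc39a8 had a log2 difference of 0.83 and Slc39a14 of -1.22.

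**Figure D2:**
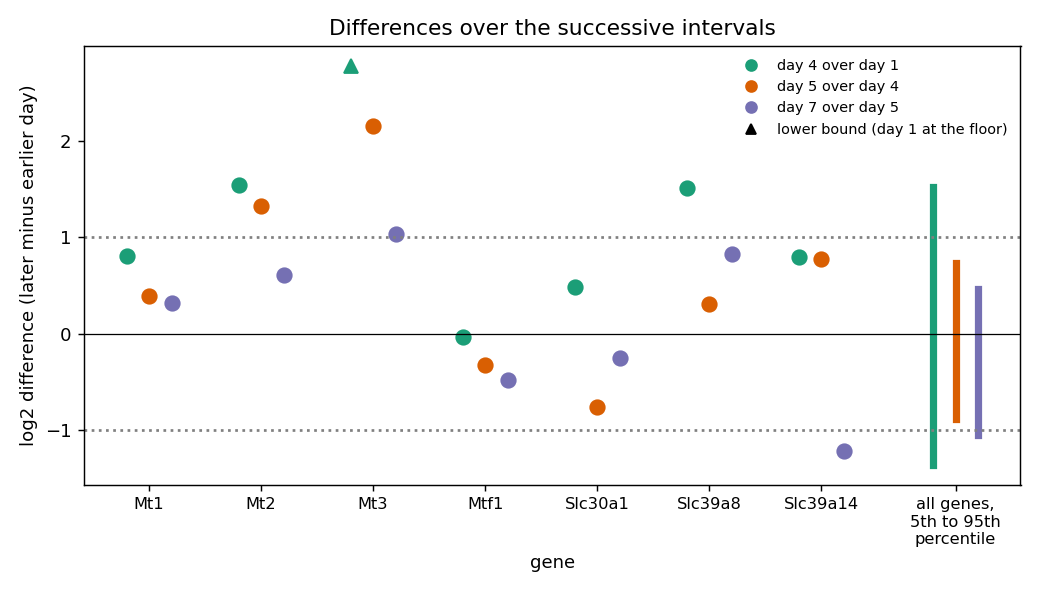
Log2 difference of each gene over the 3 successive intervals, with 1 array per day; circles are measured on both days and the triangle for Mt3 is a lower bound. Dotted lines mark 2-fold, and bars on the right span the 5th to 95th percentile of all 12438 measured genes; Mt2 and Mt3 lie above their bar at all 3 intervals and Slc39a14 lies under its bar for day 7 over day 5.

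Counted over the members, 3 of 7 were at least 2-fold higher on day 4 than on day 1 (Mt2, Mt3 and Slc39a8) and 0 were lower. Among all 12438 measured genes, 9.66% were higher and 8.33% lower in that comparison. From day 4 to day 5, 2 of 7 were higher (Mt2 and Mt3) and 0 lower, against 1.92% and 3.84% of all genes. The last step, from day 5 to day 7, had 1 higher (Mt3) and 1 lower (Slc39a14), against 0.796% and 5.45%. From day 4 to day 7 there were 3 higher (Mt2, Mt3 and Slc39a8) and 1 lower (Slc30a1), against 2.95% and 8.61%. Against day 1, day 7 had 4 higher, the 3 metallothionein genes and Slc39a8, and 0 lower, against 12.2% and 15.6%. The members were chosen with these values in view, so nothing is read from their counts. The comparisons share arrays and are not independent of each other.

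The scaling of the arrays mattered for comparisons with day 7. The median log2 difference of genes above the floor on both days was -0.11 for day 7 over day 5 in the deposited values, 0.03 with quantile normalization and 0.06 with median scaling. Of all genes called on day 7 over day 5, 12.7% were higher as deposited, 31.6% with quantile normalization and 27.2% with median scaling. From day 4 to day 7 these shares were 25.5%, 43.7% and 39.9%, and from day 1 to day 7 they were 43.9%, 56.2% and 53.1%. None of the 7 genes changed sign under either scaling in any of the 5 comparisons. Relative to the median of all genes, Mt3 had a log2 difference of 1.15 for day 7 over day 5 as deposited, 1.05 with quantile normalization and 1.15 with median scaling. Those of Mt2 were 0.72, 0.59 and 0.73, and those of Slc39a14 were -1.11, -1.05 and -1.10. Slc39a8 had 0.94, 0.95 and 0.94.

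Most other zinc transporter genes stayed within 2-fold, as did most of all 12438 measured genes. Of all genes, 9.66% were higher and 8.33% lower on day 4 than on day 1. The shares were 12.2% and 15.6% for day 7 over day 1. Of the 17 measured ZnT and ZIP genes that are not members, 1 was higher and 0 lower on day 4 over day 1, with a median of 0.24. On day 7 over day 1, 3 were higher and 1 lower, with a median of 0.22. The family counts that follow also hold the members Slc30a1, Slc39a8 and Slc39a14, which were chosen with their values in view. Of 10 ZnT genes on the array 7 were measured, meaning above the floor on at least 1 day, and these 7 were so on all 4 days. Slc30a2, Slc30a8 and Slc30a10 were below the floor throughout. None of the 7 was at least 2-fold different in 4 of the comparisons. In the fifth, day 7 over day 4, only Slc30a1 was, on the lower side, beside 8.61% of all genes lower. From day 1 to day 4 the family's median log2 difference was 0.24, beside 0.03 over all measured genes. It was -0.16 from day 5 to day 7, beside -0.09, and 0.22 from day 1 to day 7, beside 0. Slc30a4, an endosomal zinc transporter, came nearest after Slc30a1, with signals of 204, 390, 428 and 238. Its log2 difference was 0.93 from day 1 to day 4 and -0.84 at the last step, so it was high on both middle days. Slc30a5, Slc30a6 and Slc30a7, which load zinc into enzymes of the secretory pathway, had log2 differences between 0.20 and 0.34 on day 7 over day 1. The mitochondrial transporter gene Slc30a9 had one of 0.01 and Slc30a3, a gene of synaptic vesicles, one of 0.26.

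Of 14 ZIP genes 13 were measured, and Slc39a12 was below the floor throughout. On day 4 over day 1, 2 of 13 were higher, Slc39a8 and Slc39a13, beside 9.66% of all genes. The family median was 0.39, beside 0.03 over all genes. Slc39a13 encodes ZIP13, a transporter whose loss causes a connective tissue disorder, and had signals of 99.4, 276, 360 and 365. It was 2.78-fold higher on day 4 than on day 1 and had a log2 difference of 0.02 from day 5 to day 7. In the same comparison all 10 measured stromal marker genes were higher, and their part in the Slc39a13 signal was not tested. None of the 13 was called from day 4 to day 5, beside 1.92% of all genes higher and 3.84% lower. The family median there was 0.21, beside 0.03. Slc39a14 alone was called from day 5 to day 7, on the lower side, beside 5.45% of all genes lower. The family median was 0.004, beside -0.09.

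Against fresh marrow, 4 of 13 ZIP genes were higher on day 7 and 1 was lower, beside 12.2% and 15.6% of all genes. The family median was 0.35, beside 0 over all genes. Beside Slc39a8 (6.32-fold) and Slc39a13 (3.67-fold) these were Slc39a6 (2.38-fold) and Slc39a10 (2.04-fold), which encode closely related importers of the plasma membrane. Slc39a6 had signals of 735, 1182, 1770 and 1747, and Slc39a10 of 638, 1072, 1244 and 1301. Both were lowest in fresh marrow. Slc39a4, the importer gene mutated in the zinc deficiency disease acrodermatitis enteropathica, went the other way at 221, 260, 150 and 75.7. It was 3.43-fold lower on day 7 than on day 4 and 2.92-fold lower than on day 1. Slc39a1, a general importer of the plasma membrane, had a log2 difference of 0.62 on day 7 over day 1. Slc39a3, Slc39a7, Slc39a9 and Slc39a11 had ones between -0.23 and 0.22. Slc39a2 and Slc39a5 were near the floor, with no signal above 47.6. Of the 17 ZnT and ZIP genes that are not members, 4 changed sign with the scaling on day 7 over day 5 (Slc30a6, Slc30a9, Slc39a6 and Slc39a11). Slc30a3 and Slc30a5 did so from day 4 to day 5, and Slc30a7 and Slc39a11 from day 4 to day 7. All of these lay within 0.20 of 0 as deposited.

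**Figure D3:**
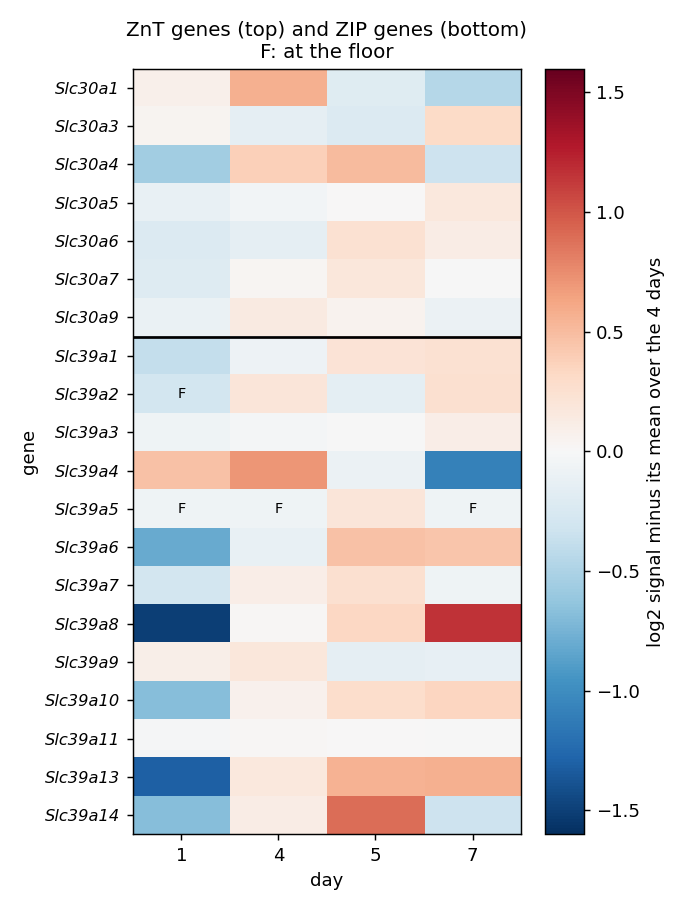
Log2 signal of 7 ZnT and 13 ZIP genes on each day, minus the gene's own mean over the 4 days, with 1 array per day; red is above and blue below that mean, and F marks a signal at the floor. Slc39a8 and Slc39a13 are lowest on day 1, Slc39a14 is highest on day 5 and Slc39a4 lowest on day 7.

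Genes known as targets of MTF-1 did not share a direction. The list of 11 was measured in full and includes Slc39a10. It also includes the members Mt1, Mt2 and Slc30a1, which were chosen with their values in view. It does not separate genes that MTF-1 raises from genes that it lowers. From day 1 to day 4 the list had 3 higher and 1 lower, beside 9.66% and 8.33% of all genes. Its median was 0.75, beside 0.03. The higher ones were Mt2, the growth factor gene Pgf (2.94-fold) and Slc40a1 (2.35-fold), which encodes the iron exporter ferroportin, and the lower one was Ndrg1 (2.61-fold). Between days 4 and 5 Mt2 alone was higher, and Slc40a1 alone was lower, by 2.18-fold, beside 1.92% and 3.84% of all genes. Pgf alone was called at the last step, 4.05-fold lower, beside 5.45% of all genes lower. Between days 4 and 7 Mt2 was higher, beside 2.95% of all genes. Slc30a1, Pgf (2.51-fold) and Gclc (2.23-fold), the gene of the enzyme that limits glutathione synthesis, were lower, beside 8.61%. Against day 1, Mt1, Mt2, Slc39a10 and the selenoprotein gene Selenoh (3.11-fold) were higher on day 7, beside 12.2% of all genes. Selenow was 2.16-fold lower, beside 15.6%, and the median was 0.30, beside 0.

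Genes of copper handling, the other metal that metallothioneins bind, mostly stayed within 2-fold, as most of all measured genes did. Of 12 listed genes 11 were measured. The ferroxidase gene Cp alone was called on day 4 over day 1, 4.69-fold higher, beside 9.66% of all genes higher and 8.33% lower. Between days 1 and 7 both Cp (4.25-fold) and Cox11 (2.32-fold), a copper chaperone gene of cytochrome oxidase, were higher, beside 12.2% of all genes. None of the 11 was called in the other 3 comparisons. The copper importer gene Slc31a1 had signals of 477, 721, 818 and 933, a log2 difference of 0.97 on day 7 over day 1. The list median in that comparison was 0.76, beside 0 over all genes.

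The genes whose course came nearest to each member's were found by the root mean square difference between log2 signals, each centred on its own mean over the 4 arrays, among 10034 genes above the floor on all 4. Nearest to Mt2 was Cd59a, a complement inhibitor gene, at a distance of 0.07 and with signals of 75.7, 198, 510 and 842. The next were 2810025M15Rik at 0.14, Cav2 at 0.26, Rapgef5 at 0.27 and the lamin gene Lmna at 0.28. Mt1 had nearer neighbours, Etfrf1 at 0.03, the respiratory chain gene Uqcr10 at 0.03, the ubiquinone synthesis gene Coq7 at 0.04, Dip2c at 0.04 and Lyplal1 at 0.06. Nearest to Slc39a8 were Pomk, Tmem144, Cryl1, Stau2 and Slc27a1, at distances from 0.13 to 0.19. Nearest to Slc39a14 were Auts2, Cacna2d1, Ift81, Chst1 and Ecscr, from 0.06 to 0.13. That they too had their highest signal on day 5 comes from how they were picked. Slc30a1 was nearest to Dgkq, Gstm1, Coq8b, Rnf150 and Rxra (0.03 to 0.04) and Mtf1 to Bcas3, Epor, Dennd6b, Specc1l and Ier5 (0.01 to 0.04). Mt3 was below the floor on day 1 and was compared over days 4, 5 and 7 alone, a choice made after its values were seen. Among 10522 genes above the floor on those 3 days, the nearest was the ketone body enzyme gene Bdh1 at 0.03, with signals of 171, 787 and 1635. Then came the urokinase gene Plau (0.17), Slc9b2 (0.21), Tmem204 (0.22) and the folate receptor gene Folr2 (0.22). With so few arrays such nearness is only a likeness of shape.

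The makeup of the cultures differed between days, and in a bulk sample fewer cells of a type and less RNA per cell cannot be told apart. All 4 samples are labelled primary osteoclasts, but on day 1 only 6 of 10 osteoclast markers were above the floor and all 6 measured red cell markers were. The summed signal of the 10 osteoclast markers was 8533, 27813, 46872 and 55361 on days 1, 4, 5 and 7. The 4 markers below the floor on day 1 were Calcr, Dcstamp, Ocstamp and Oscar, as Mt3 was. Oscar, an activating receptor gene, had signals of 13.8, 120, 601 and 1590, and the fusion gene Ocstamp of 16.5, 419, 1425 and 2108. The osteoclast sum was higher on each later day, as Mt1, Mt2, Mt3 and Slc39a8 were, and its part in their signals was not tested. The summed signal of the 11 stromal genes was 2195, 26909, 35337 and 24873, highest on day 5 as Slc39a14 was, with 8, 10, 10 and 10 of them above the floor. Not all of the 10 measured stromal genes were highest on day 5. Mgp and Cxcl12 were highest on day 7, at 7415 and 5612, and Lum on day 4, at 65.5. The part of the stromal genes in the Slc39a14 signal was not tested.

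None of the other marker sums was higher on each later day. That of the 9 macrophage genes, all above the floor on each day, was 37948, 72054, 63753 and 66943. That of the 10 neutrophil genes was 114997, 68835, 37091 and 5285, lower on each later day as Slc39a4 was from day 4 on, and its part in the Slc39a4 signal was not tested. The 6 red cell genes summed to 25684 on day 1 and to between 223 and 311 afterwards, when only Bpgm was above the floor. The 6 B cell genes summed to 4594, 1662, 359 and 144, and the 7 platelet genes to 16517, 21071, 14870 and 8331. The red cell, B cell, neutrophil and platelet sums were all lower on day 7, where Mt1, Mt2 and Mt3 were highest, than on day 1. Most of the platelet sum on day 7 came from Pf4, with 8628 on day 1 and 8027 on day 7. Between these days 6 of the 7 platelet genes were at least 2-fold lower, beside 15.6% of all genes. The median log2 difference of the 7 was -3.44.

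**Figure D4:**
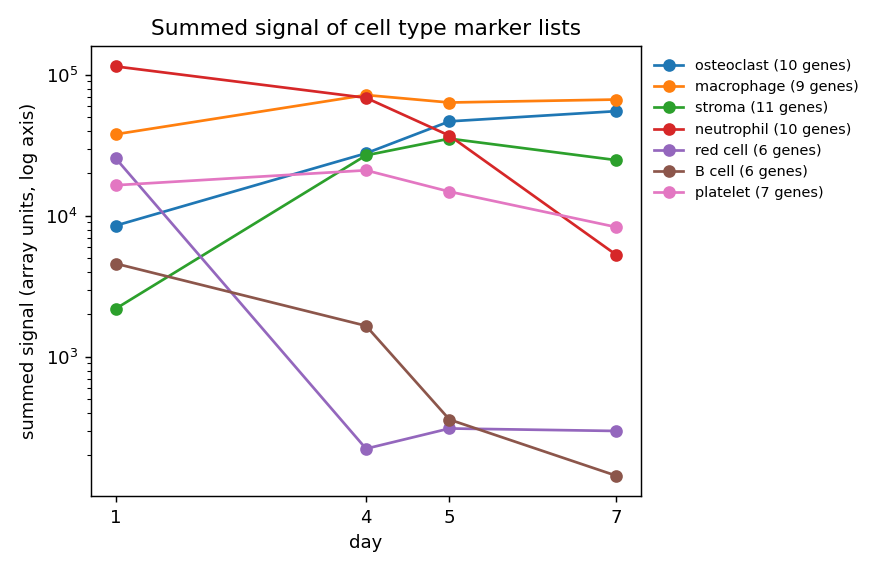
Summed signal (log axis, array units) of the marker genes of 7 cell types against the day, 1 array per day. The osteoclast sum is highest on day 7 at 55361, the stromal sum on day 5 at 35337, and the neutrophil sum drops from 114997 to 5285.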

How the data were processed

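The authors deposited 1 value per probe set and array, a linear intensity. GCOS 1.4 and MAS5 are named in the submitters' processing notes, which give no scaling target. The mean signal of an array, trimmed by 2% at each end, lay between 277 and 296. Groups come from the day in each title. The 64 control probe sets were left out, and 34945 of 45037 others had 1 gene symbol in the platform annotation, 932 several and 9160 none. Only probe sets with 1 symbol were used. Of these, 34741 matched a RefSeq gene number (GRCm38.p6) and 0 symbols changed. The floor was the 50th percentile of all values.

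Members and lists were chosen with earlier results of these data known. Named were all members, all measured ZnT and ZIP genes, up to 4 genes of other lists with the largest differences, and the 5 genes nearest each member. The 15 lists were the 2 transporter families, MTF-1 targets, copper handling, glucocorticoid, IL-6 and STAT3, NRF2 and hypoxia responses, and 7 cell types. Alternatives were floors at the 25th and 60th percentile (8.43 and 68.9), 16 added to signals with no floor, quantile and median scaling, the mean over probe sets, and leaving out probe sets with IDs in _s_at or _x_at. Counting was tested on simulated data. Tools were Python 3.11.15, numpy 2.4.6, pandas 2.3.3 and matplotlib 3.10.9. The number of arrays limits the precision.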

Additional observations from a re-analysis of the deposited data

How the results depend on the processing

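Over 7 alternatives and 5 comparisons, the log2 differences of the 7 genes moved by less than the pooled SD between probe sets in 226 of 245 cases. Of those called, 0 changed sign and 7 of 105 lost the call; Mt1, not called in them, changed sign in 2 cases. Of the counts, 195 of 210 stayed within 1.5 times. Without _s_at and _x_at probe sets, Mt1 is left with a probe set near the floor, at 0.032 (days 1 to 4), -0.032 (days 4 to 5 and days 4 to 7) and 0 (days 5 to 7 and days 1 to 7). The mean over probe sets, which takes in those at the floor, gave Mt1 0.34 (days 4 to 7) and 0.76 (days 1 to 7). It gave Slc39a8 0.76 (days 1 to 4), 0.42 (days 5 to 7), 0.57 (days 4 to 7) and 1.33 (days 1 to 7), Slc39a14 0.42 (days 4 to 5) and -0.69 (days 5 to 7), and Mtf1 -0.076 (days 5 to 7) and -0.13 (days 4 to 7). The bound of Mt3 moves with the floor by construction. For days 1 to 4 it was 3.87 with a floor at the 25th percentile, where day 1 counts as measured, and 1.69 at the 60th. For days 1 to 7 it was 7.07 and 4.89.

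Counts changed as follows. Median scaling gave 2 members higher for days 5 to 7, with Slc39a8 added, 1 ZIP gene higher for days 5 to 7, and 0 members and 0 ZnT genes lower for days 4 to 7. The mean over probe sets gave 0 members lower for days 5 to 7 and for days 4 to 7, and 0 ZnT genes lower for days 4 to 7. It gave 1 ZIP gene higher for days 1 to 4, 0 lower for days 5 to 7 and 0 higher for days 4 to 7. The floor at the 25th percentile gave 1 ZnT gene lower for days 1 to 4 and for days 1 to 7, 1 ZIP gene higher for days 4 to 5 and 2 ZIP genes lower for days 5 to 7. With 16 added and no floor, 1 ZIP gene was higher for days 4 to 5. Some of these changes follow from the settings. The lower ZnT gene with the floor at the 25th percentile was Slc30a2, at 30.9 on day 1 and 1.15 on day 4, which is measured only with that floor. In the mean over probe sets, one at the floor on both days adds no difference and makes the mean smaller. The cause of the other changes was not tested. No paired analysis was possible because each group holds 1 array. A signal under the floor limits Mt3 on day 1.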

Other observations

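Genes of glucocorticoid, IL-6, NRF2 and hypoxia responses were followed as well. Between days 1 and 7, 6 of 10 glucocorticoid genes were at least 2-fold lower and 0 higher, with a median of -1.05. Of 13 IL-6 and STAT3 genes 7 were lower and 2 higher, with a median of -1.14. Of 9 NRF2 targets 3 were lower and 0 higher, with a median of -0.62. Of 11 hypoxia genes 3 were lower and 2 higher, with a median of 0.37. Of all genes, 15.6% were lower and 12.2% higher, with a median of 0. Of 10 glucocorticoid response genes, 2 were at least 2-fold higher on day 4 than on day 1 (Errfi1 at 3.48-fold and Klf9 at 2.28-fold), beside 9.66% of all genes. The lower ones were 2, Zbtb16 (at least 2.12-fold) and the phosphatase gene Dusp1 (2.02-fold), beside 8.33%. From day 5 to day 7 the list had 0 higher and 4 lower, Errfi1 (2.83-fold), Klf9 (2.55-fold), Ddit4 (2.54-fold) and Dusp1 (2.13-fold), beside 5.45% of all genes lower. The median was -0.67, beside -0.09 over all genes.

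Of 13 genes of the IL-6 and STAT3 response, 2 were higher on day 4 than on day 1, the receptor genes Osmr (10-fold) and Il6st (3.05-fold). Saa3 alone was lower, by 2.65-fold, and 9.66% of all genes were higher and 8.33% lower. All 10 measured stromal markers were higher between the same days. Osmr had signals of 61.8, 620, 1077 and 519 and Il6st of 527, 1608, 2157 and 1044, both highest on day 5 as Slc39a14 was, and a link between them was not tested. Stat3 was instead lower on each later day, at 2016, 1261, 948 and 536. From day 4 to day 5 the cytokine gene Lif was 2.23-fold higher, while Lcn2 (2.42-fold) and the receptor gene Il6ra (2.12-fold) were lower, beside 1.92% and 3.84% of all genes. From day 5 to day 7, 7 of 13 were lower and 0 higher, with a median of -1.05, beside 5.45% of all genes lower. The 4 with the largest differences were Lcn2 (9.72-fold), Saa3 (4.29-fold), Il6 (at least 3.94-fold) and Socs3, the feedback inhibitor gene of this pathway (2.29-fold). Lcn2 is also one of the 10 neutrophil markers, of which 9 were lower at this step with a median of -2.74. Of 10 measured stromal markers 4 were lower. The part of these cells in the list's difference was not tested.

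Of 9 measured NRF2 targets, 2 were higher on day 4 than on day 1, the haem oxygenase gene Hmox1 (2.12-fold) and Srxn1 (2.03-fold). None was lower, and 9.66% of all genes were higher and 8.33% lower. At the last step Slc7a11, the cystine importer gene, was the one called, 3.39-fold lower, beside 5.45% of all genes lower. The list median was -0.46, beside -0.09. Of 11 hypoxia response genes, 1 was higher on day 5 than on day 4, the pyruvate dehydrogenase kinase gene Pdk1 (2.02-fold). None was lower, and 1.92% of all genes were higher and 3.84% lower. From day 5 to day 7, 2 were lower, Adm (2.58-fold) and Vegfa (2.12-fold), beside 5.45% of all genes. The list median was -0.11, beside -0.09.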
